A study of Mus musculus with 12 samples.

Results

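Mouse cortex at embryonic day 14 was compared between animals without AP2gamma and wild-type animals, in a caudal and in a rostral piece, and the question addressed was whether the loss of AP2gamma altered transcript levels differently in the 2 regions. For every gene the knock-out effect (KO minus WT) was taken in each region, and the interaction is the caudal effect minus the rostral effect. All 12 arrays of the series enter this comparison, and 11785 of the 18194 genes named on the array were bright enough to be tested. Among these, 13 genes met an unadjusted threshold in both regions with opposite signs, 25 met one caudally with a small rostral effect (called caudal-only genes) and 47 met one rostrally with a small caudal effect (rostral-only genes). No interaction and no regional effect of any gene passed at an adjusted p under 0.05 (0 of 11785 genes in each, limma with Benjamini-Hochberg adjustment over all tested genes), so higher and lower below describe measured values. The 4 groups held 3 arrays each. They were caudal AP2gamma k.o. (animals 1, 2, 13), caudal wt (4, 6, 14), rostral AP2gamma k.o. (7, 8, 15) and rostral wt (10, 12, 16), called KO and WT below. The labels describe the animals as knock-out or wild type and give neither strain, allele nor a Cre driver. Every array carries its own animal number, and the labels do not say whether a caudal and a rostral piece came from 1 embryo, so the p-values measure the spread between the arrays as labelled.

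AP2gamma, encoded by Tfap2c, is a transcription factor of the AP2 family that binds GC-rich sites and is present in progenitors of the developing cortex. Radial glia, the apical progenitors at the ventricle, give rise to basal progenitors, which divide away from the ventricle and produce neurons, and Eomes and Neurod4 are genes of this lineage. Caudal and rostral cortex differ at this age in their progenitors, patterning genes and neighbouring tissues, among them the cortical hem, the choroid plexus and the meninges.

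Markers of cortical identity were high on every array. Emx1 ran from 8.19 to 9.32 on the log2 scale, Tbr1 from 8.66 to 10.17, Neurod2 from 10.22 to 10.82, Neurod6 from 11.57 to 12.4 and Pax6 from 9.85 to 10.4. The array medians were 5.21 or 5.22, and a group is called dim for a gene when all 3 of its arrays lie at or below 5.21, the median of the whole table. Tfap2c itself read 7.71, 7.86 and 7.44 in caudal KO against 9.19, 8.84 and 8.64 in caudal WT, with 8.11, 8.63 and 8.09 on the rostral KO arrays and 9.06, 9.0 and 8.54 on the rostral WT arrays. The caudal groups were apart, whereas rostral KO 8 lay above rostral WT 16. The effect of Tfap2c was -1.22 ± 0.19 (SE) in caudal cortex (limma adjusted p = 0.084) and -0.59 ± 0.19 in rostral cortex (limma adjusted p = 0.63). The interaction of Tfap2c was -0.63 ± 0.27 and did not pass (limma adjusted p = 1). Its other probe sets gave interactions of -0.45 and -0.36, and whether the probe sets lie in the deleted stretch was not tested, so they do not check the deletion itself.

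Neurod4 and Eomes, of the basal progenitor lineage, had negative effects in both regions, of which none passed. Neurod4 read 3.99, 4.33 and 3.99 in caudal KO against 6.63, 6.31 and 6.31 in caudal WT, with 4.45, 5.76 and 4.58 on the rostral KO arrays and 7.44, 6.88 and 7.09 on the rostral WT arrays. KO arrays lay below WT arrays in both regions, caudal KO was dim, and the interaction of Neurod4 was -0.10 ± 0.46, or 0.54 when values under 5.21 were raised to 5.21. The effects of Neurod4 were -2.31 ± 0.32 caudally (limma adjusted p = 0.077) and -2.21 ± 0.32 rostrally (limma adjusted p = 0.12), the smallest adjusted p-values of all genes in each region, and -1.20 and -1.74 with values raised to 5.21. Eomes, the T-box factor of basal progenitors, differed by -0.58 ± 0.12 caudally and -0.55 ± 0.12 rostrally (limma adjusted p = 0.38 and 0.48), an interaction of -0.03 ± 0.17. Nrn1, which encodes the neurite growth factor neuritin, differed by -0.30 ± 0.07 and -0.42 ± 0.07 (limma adjusted p = 0.59 and 0.15).

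No gene passed the interaction test at an adjusted p under 0.05 (0% of genes tested). The smallest adjusted p of limma was 0.34, for the sorting nexin gene Snx2. At an unadjusted p under 0.05 the count was 358 genes (3.04%), of which 205 had a positive interaction (the KO effect higher in caudal cortex) and 153 a negative one. In 324 of these 358 genes the regional effects had opposite signs, a share that the subtraction itself raises. Over all tested genes 5164 (43.8%) had effects of opposite sign, 2842 of them higher in caudal KO and lower in rostral KO, and 2322 the reverse. The median interaction was 0.02, 6282 genes (53.3%) lay above 0, and the median SE of an interaction was 0.223, against 0.158 for a single regional effect. With animals 13 to 16, 1 in each group, fitted as an additive block, 1 gene passed, Snx2 (limma adjusted p = 0.027), and 643 genes had an unadjusted p under 0.05. Without caudal WT 14 the latter count was 708.

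**Figure D1:**
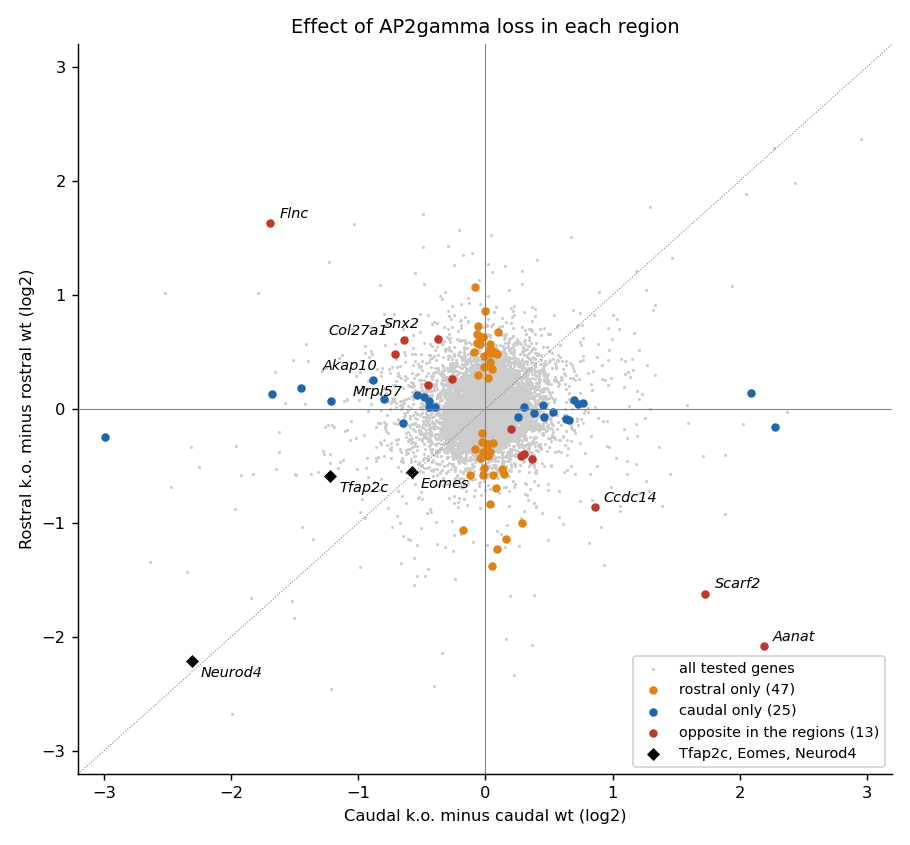
Effect of AP2gamma loss on each of 11785 genes, in log2 units, in caudal cortex (horizontal axis) and in rostral cortex (vertical axis). Each grey point is 1 gene, the dotted line marks equal effects, and colours mark the 13 opposite, 25 caudal-only and 47 rostral-only genes. Neurod4 and Eomes lie close to the line of equal effects, and Flnc, Aanat and Scarf2 lie farthest from it among the opposite genes.

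Genes were called opposite when KO and WT differed at an unadjusted p under 0.05 in each region and the signs were opposite. This held for 13 genes (0.110% of those tested), 7 higher in caudal KO and lower in rostral KO, and 6 the reverse. For comparison, 75 genes met the same threshold in both regions with the same sign, 37 higher and 38 lower in KO, and the threshold was met by 478 genes in caudal cortex (4.06%) and by 789 in rostral cortex (6.69%). The limma adjusted p of the regional effects of the 13 genes ran from 0.28 to 1 caudally and from 0.30 to 0.74 rostrally. Since the rule uses the regional effects, the size of the interaction in these 13 genes is a description, and all adjusted p-values below come from the fit over all genes. The number of opposite genes was 7 without rostral KO 8 and 21 without caudal WT 14. Just inside the threshold lay Scarf2 (1.73 and -1.62 in caudal and rostral cortex) and Btbd2 (0.37 and -0.44). Just outside lay Ptpn21 (0.71 and -0.57), Aqp2 (1.88 and -0.92) and Plekhg1 (-0.34 and 0.58).

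The AP2 consensus was counted in the promoters of the sets as a description, because AP2 factors bind it. The motif searched was GCCNNNGGC, which reads the same on both strands, in windows of 300 bases (250 before to 50 after the start) from RefSeq on GRCm38.p6. It was present in 1 of the 10 opposite genes that matched the table, in 5 of 18 caudal-only genes (27.8%) and in 10 of 34 rostral-only genes (29.4%). Among all 9563 tested genes that matched, 2814 held it (29.4%), and it was found in 5450 of all 32851 promoters of the table (16.6%). The opposite gene with the motif was Akap10. Its window lies at chr11:61930208-61930507 on the minus strand and is shown 5′ to 3′ because it is the only one of this set with a match, with the motif in capitals at position -213 from the start.
Akap10: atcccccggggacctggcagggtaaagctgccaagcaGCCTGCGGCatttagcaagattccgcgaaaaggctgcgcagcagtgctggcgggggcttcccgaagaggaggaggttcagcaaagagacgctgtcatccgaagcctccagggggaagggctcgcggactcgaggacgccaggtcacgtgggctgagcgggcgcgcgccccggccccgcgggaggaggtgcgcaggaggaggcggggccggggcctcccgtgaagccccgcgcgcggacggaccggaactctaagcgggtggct
A match describes these letters only, and whether AP2gamma binds there was not tested.

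Of the 6 opposite genes that were lower in caudal KO and higher in rostral KO, Snx2 had the smallest interaction p of all genes. Snx2 encodes a sorting nexin that works with the retromer in moving cargo from endosomes to the Golgi. Its log2 values were 9.26, 9.24 and 9.04 in caudal KO and 9.68, 9.63 and 9.33 in caudal WT. The rostral KO arrays read 9.87, 9.74 and 9.83 and the rostral WT arrays 9.22, 9.33 and 9.08. KO and WT did not overlap in either region, and the 4 groups fell into a high pair (caudal WT, rostral KO) and a low pair (caudal KO, rostral WT). The caudal effect was -0.37 ± 0.11 (1.29-fold lower in KO) and the rostral effect 0.61 ± 0.11 (1.52-fold higher), an interaction of -0.98 ± 0.16 (limma adjusted p = 0.34, range 0.027 to 1 over 23 alternatives). Animals 1 to 12 alone gave an interaction of -0.94 for Snx2, and animals 13 to 16 alone, 1 array per group, -1.05. Since Snx2 was chosen on all 12 arrays, the like sign is no separate test. The 2 parts had the same sign in 357 of the 358 genes at an unadjusted interaction p under 0.05 (limma). Over all 11785 tested genes this held for 6705.

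Mrpl57, a protein of the large subunit of the mitochondrial ribosome, had the next smallest interaction p. It read 9.83, 9.75 and 9.85 in caudal KO against 10.37, 10.28 and 10.13 in caudal WT, whereas rostral WT stood at 9.82, 10.05 and 9.86 and rostral KO at 10.1, 10.13 and 10.14. Neither region showed overlap, with effects of -0.45 ± 0.09 and 0.21 ± 0.09 and an interaction of -0.66 ± 0.12 (limma adjusted p = 0.69). A second, dimmer probe set of Mrpl57 gave 0.06 and 0.16 and so did not repeat the opposite signs.

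Akap10 encodes an anchoring protein that tethers protein kinase A. Its values were 6.9, 7.24 and 6.63 in caudal KO against 7.75, 7.7 and 7.44 in caudal WT, while rostral KO stood at 7.33, 7.56 and 8.23 and rostral WT at 7.28, 7.23 and 7.17. The groups did not overlap, and rostral KO 15 was the highest array of Akap10. Effects were -0.71 ± 0.21 and 0.48 ± 0.21, the interaction was -1.18 ± 0.30, and a second probe set gave -0.76 and -0.10. Pigq, which takes part in the first step of GPI anchor synthesis, read 9.29, 9.43 and 9.2 in caudal KO against 9.36, 9.66 and 9.68 in caudal WT. Rostrally Pigq read 9.24, 9.34 and 9.39 in KO against 9.01, 9.06 and 9.11 in WT. Caudal KO 2 overlapped with WT, while the rostral groups of Pigq were apart, with effects of -0.26 ± 0.10 and 0.26 ± 0.10. The 4 other tested probe sets of Pigq gave caudal effects from -0.09 to 0.43 and rostral effects from 0.12 to 0.42, so only the rostral direction recurred.

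Col27a1, a fibrillar collagen gene, was near the lower limit of the signal. It read 5.35, 5.41 and 4.86 in caudal KO against 6.0, 5.49 and 6.06 in caudal WT, with 5.76, 5.73 and 6.0 on the rostral KO arrays and 5.45, 5.06 and 5.2 on the rostral WT arrays. Neither region overlapped, and both probe sets of Col27a1 had the same signs (-0.64 and 0.60, and -0.38 and 0.96). Flnc, which encodes the actin crosslinker filamin C, was dim in caudal KO and in rostral WT. Its values were 3.65, 4.06 and 3.56 in caudal KO against 5.36, 5.0 and 5.99 in caudal WT, whereas rostral WT stood at 3.55, 4.76 and 2.92 and rostral KO at 5.56, 5.68 and 4.88. Flnc was at least 1.24-fold lower in caudal KO and at least 1.21-fold higher in rostral KO, where the measured effects were -1.69 and 1.63.

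Among the 7 opposite genes that were higher in caudal KO and lower in rostral KO, Ccdc14 had the smallest p. Ccdc14 encodes a coiled-coil protein of the centriolar satellites. It read 6.09, 6.27 and 5.39 in caudal KO against 5.23, 5.03 and 4.91 in caudal WT, while rostral KO stood at 6.11, 5.84 and 5.4 and rostral WT at 6.55, 6.69 and 6.69. The groups were apart in both regions, and rostral WT stood above all other groups. The effects of 0.86 ± 0.26 and -0.86 ± 0.26 gave an interaction of 1.72 ± 0.37 (limma adjusted p = 1, range 0.32 to 1 over 22 alternatives).

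Mrpl11 and Uqcrh are 2 more genes of mitochondrial proteins. Mrpl11, of the large subunit of the mitochondrial ribosome, read 10.48, 10.3 and 10.18 in caudal KO against 10.04, 10.0 and 10.03 in caudal WT. Rostrally Mrpl11 read 9.82, 9.57 and 9.95 in KO against 10.02, 10.41 and 10.1 in WT. Neither region overlapped and the interaction was 0.69 ± 0.17, opposite in sign to that of Mrpl57. The 3 other probe sets of Mrpl11 gave interactions of 0.07, 0.35 and -0.72. Uqcrh, a subunit of respiratory complex III, read 12.07, 11.97 and 12.0 in caudal KO against 11.76, 11.75 and 11.92 in caudal WT, with 11.84, 11.62 and 11.85 on the rostral KO arrays and 11.88, 12.01 and 11.96 on the rostral WT arrays. Its effects were small (0.20 ± 0.08 and -0.18 ± 0.08), without overlap, and the second probe set of Uqcrh gave 0.17 and -0.17.

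Tspan14, a tetraspanin of the cell surface, read 9.5, 9.22 and 9.47 in caudal KO against 8.9, 9.31 and 9.14 in caudal WT, whereas rostral WT stood at 9.28, 9.14 and 9.27 and rostral KO at 8.94, 8.86 and 8.67. For Tspan14 the rostral groups were apart (-0.41 ± 0.12) and the caudal groups overlapped (0.28 ± 0.12). Btbd2, a BTB domain protein, read 8.73, 8.71 and 8.08 in caudal KO against 8.18, 7.91 and 8.31 in caudal WT, while rostral KO stood at 8.35, 8.28 and 8.01 and rostral WT at 8.54, 8.68 and 8.75. Here too only the rostral groups were apart. Aanat, known for the synthesis of melatonin, was dim in caudal WT and rostral KO. It read 5.89, 5.61 and 4.6 in caudal KO against 4.04, 1.58 and 3.9 in caudal WT, with 3.99, 3.25 and 2.94 on the rostral KO arrays and 5.84, 5.79 and 4.79 on the rostral WT arrays, which makes it at least 1.28-fold higher in caudal KO and at least 1.32-fold lower in rostral KO. Scarf2, a scavenger receptor gene, was dim in rostral KO and overlapped in both regions, with 6.18, 5.72 and 5.11 in caudal KO, 5.53, 3.62 and 2.67 in caudal WT, 3.0, 2.42 and 4.76 in rostral KO and 5.36, 5.22 and 4.46 in rostral WT. It was at least 1.04-fold lower in rostral KO. In all, 9 of the 13 genes had no overlap in both regions. Over all 11785 tested genes, 29 (0.246%) had no overlap in both regions with opposite directions, and the rule itself raises the count among the 13. Of the 13 genes, 3 were dim in some group. Another tested probe set existed for 6, of which 4 kept the sign of the interaction in every such set and 2 kept both regional signs.

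**Figure D2:**
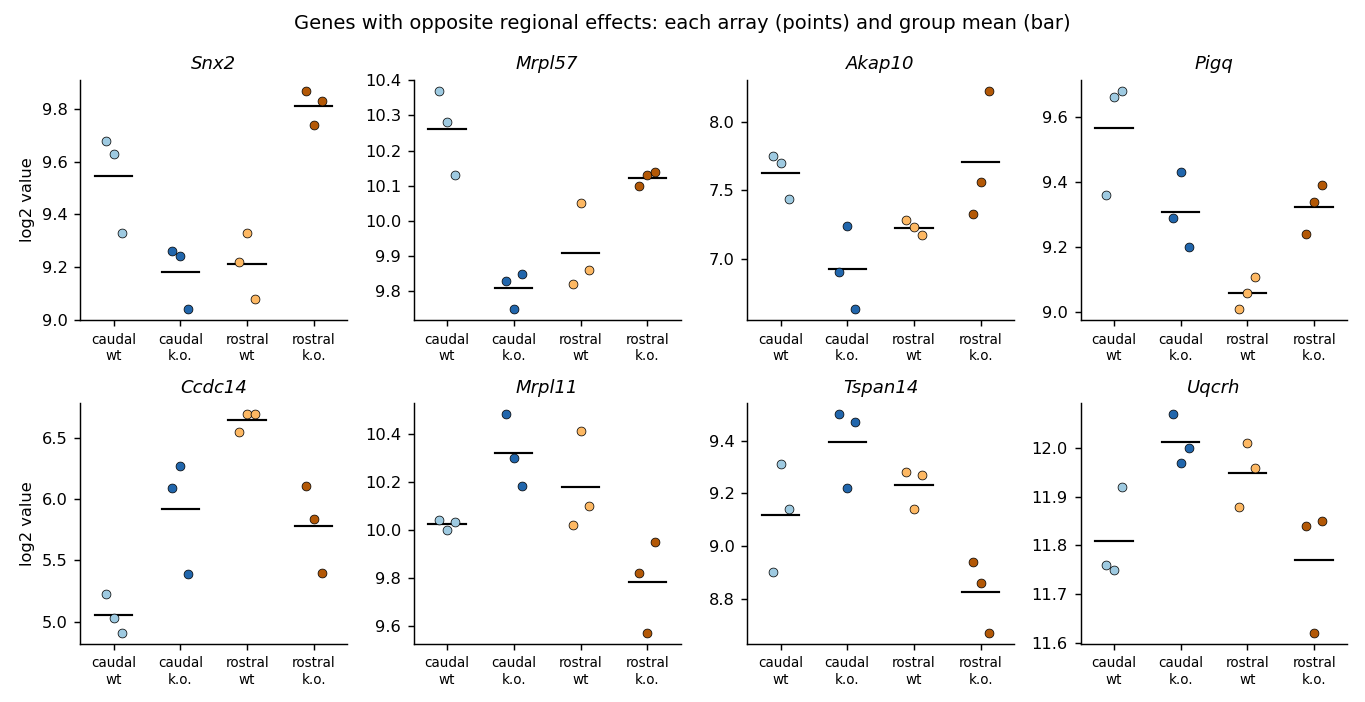
Log2 values of 8 opposite genes on each array (points) with the group mean (bar), from left to right caudal WT, caudal KO, rostral WT and rostral KO. The vertical axes differ between panels and do not start at 0. In the upper row the KO mean is lower in caudal and higher in rostral cortex, and in the lower row the reverse. Snx2 lies between 9.04 and 9.26 in caudal KO and between 9.74 and 9.87 in rostral KO. The caudal arrays of Pigq and of Tspan14 overlap.

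A count that does not rest on the fitted spread gave 29 genes (0.246%) whose 3 KO and 3 WT arrays did not overlap in either region, with opposite directions. Of these 18 were higher in caudal KO and lower in rostral KO. They include 2 genes of the 10 with the smallest interaction p that were not among the 13. Tmem163, a zinc transporter gene of deep cortical neurons, read 6.91, 6.42 and 6.49 in caudal KO against 7.63, 7.74 and 7.22 in caudal WT, whereas rostral WT stood at 7.07, 7.13 and 7.21 and rostral KO at 7.33, 7.5 and 7.31. Its caudal effect (-0.92 ± 0.17) was larger than its rostral effect (0.24 ± 0.17), and the interaction of Tmem163 was -1.17 ± 0.24 (limma adjusted p = 0.99). Aqp2, a water channel gene, was dim in caudal WT and rostral KO and was at least 1.05-fold higher in caudal KO and at least 1.06-fold lower in rostral KO.

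In 8 of the 11785 tested genes the difference between caudal and rostral cortex ran 1 way in WT and the other way in KO. The unadjusted p was under 0.05 in each genotype, and the number of genes meeting this in 1 genotype alone is not given. Since the KO difference minus the WT difference is the interaction, a reversal goes with a large interaction and is no separate result. None of the 8 passed the interaction test (limma adjusted p of 0.34 or more). Snx2 was higher caudally in WT (0.34 ± 0.11) and lower caudally in KO (-0.64 ± 0.11). The same order held for Mrpl57 (0.35 in WT and -0.31 in KO), Tmem163 (0.39 and -0.77) and Col27a1 (0.61 and -0.63). It also held for Plekhg1 (0.39 and -0.52), Sh3gl3, an endophilin gene (0.30 and -0.39), and Flnc, which was dim in 2 groups. Aanat, dim in 2 groups, ran the other way. Ccdc14 differed, with a regional difference of -1.59 in WT and 0.13 in KO, as did Pigq with 0.51 in WT and -0.02 in KO.

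Caudal-only genes met an unadjusted p under 0.01 for the caudal effect, a rostral effect smaller than its SE, and an unadjusted interaction p under 0.05. There were 25 (0.212%), 13 higher and 12 lower in caudal KO, and the limma adjusted p of their caudal effect was 0.21 or more. In 24 of them the caudal KO and WT arrays did not overlap, against 886 of all tested genes (7.52%), a count that the rule itself raises. The number was 16 without rostral KO 8, 60 without caudal KO 1 and 72 without caudal WT 14. The named ones are the 5 of smallest interaction p in each direction, and none passed the interaction test (limma adjusted p = 1 for each).

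Among those higher in caudal KO was Nptx1, a neuronal pentraxin of synapses, which read 7.08, 6.85 and 7.19 in caudal KO against 6.19, 6.38 and 6.57 in caudal WT, while rostral KO stood at 7.21, 7.27 and 6.46 and rostral WT at 7.05, 7.0 and 7.17. The caudal groups of Nptx1 were apart and the rostral groups overlapped (caudal effect 0.66 ± 0.20, rostral -0.10 ± 0.20). Sema5b, a semaphorin of axon guidance, read 7.35, 7.33 and 7.38 in caudal KO against 6.98, 6.7 and 6.99 in caudal WT, an effect of 0.46 ± 0.14 beside -0.07 ± 0.14 in rostral cortex, and its second probe set gave 0.28 and -0.09. Pantr1, a long noncoding RNA next to Pou3f3, read 11.29, 11.26 and 11.49 in caudal KO against 11.15, 10.95 and 11.16 in caudal WT (0.26 ± 0.08 beside -0.07 ± 0.08). The splicing protein gene Zranb2 differed by 0.38 ± 0.09 caudally and -0.04 ± 0.09 rostrally, and Fam53b by 0.53 ± 0.15 and -0.03 ± 0.15. In all 5 genes the regional difference was larger in size in WT than in KO, with caudal minus rostral from -0.30 to -0.70 in WT and from -0.13 to 0.23 in KO. The KO difference minus the WT difference is the interaction, by which these genes were chosen, so this is no separate result.

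Of those lower in caudal KO, Adcyap1, which encodes the neuropeptide PACAP, read 5.32, 3.92 and 4.86 in caudal KO against 6.07, 5.72 and 5.96 in caudal WT. On the 6 rostral arrays Adcyap1 lay between 6.06 and 6.4, and the caudal effect was -1.21 ± 0.30 beside 0.07 ± 0.30. Gabra2, a subunit of the GABA-A receptor, read 8.18, 7.27 and 7.1 in caudal KO against 8.43, 8.29 and 8.46 in caudal WT, and lay between 5.75 and 6.76 in rostral cortex. All 3 of its tested probe sets were lower in caudal KO (-0.88, -0.54 and -0.65), with rostral effects of 0.25, 0.57 and 0.33. Adamts20, a secreted metalloprotease, read 7.39, 7.47 and 7.21 against 8.02, 7.9 and 7.78 in caudal cortex and between 6.80 and 7.20 in rostral cortex. Gabra2 and Adamts20 were both higher in caudal than in rostral WT (2.21 and 0.90), and this difference was 1.09 and 0.23 in KO. For Adcyap1 it was -0.31 in WT and -1.59 in KO, larger in size in KO. Snx11, another sorting nexin, differed by -0.48 ± 0.15 caudally and 0.10 ± 0.15 rostrally. Lgals7, a galectin gene, was dim in caudal KO and at least 1.48-fold lower there. Caudal minus rostral was 0.37 in WT and -0.21 in KO for Snx11, and 0.41 and -2.32 as measured for Lgals7.

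Rostral-only genes, defined the same way with the regions exchanged, numbered 47 (0.399%), 24 lower and 23 higher in rostral KO. The limma adjusted p of their rostral effect was 0.48 or more. In 44 of them the rostral KO and WT arrays did not overlap, against 1528 of all tested genes (13.0%), a count that the rule again raises. The number was 23 without rostral KO 8, 25 without caudal KO 1 or rostral WT 16, 80 without rostral KO 7 and 111 without rostral WT 10.

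The rostral-only genes lower in KO included Nfatc2, a calcium-regulated transcription factor, which read 6.02, 6.25 and 6.15 in rostral WT and 5.52, 4.48 and 4.72 in rostral KO. In caudal cortex Nfatc2 lay between 5.37 and 6.20, and the effects were -1.23 ± 0.29 rostrally and 0.09 ± 0.29 caudally. Its other probe sets gave 0.63 and -1.16 in rostral cortex, so the direction was not shared by all. Snrnp27, of the U4/U6.U5 small nuclear ribonucleoprotein, read 11.34, 11.38 and 11.47 in rostral WT and 11.07, 10.87 and 11.12 in rostral KO (-0.38 ± 0.08 beside -0.02 ± 0.08), and its second probe set gave 0.15 in rostral cortex. Cabp1, a neuronal calcium-binding protein (-1.0 ± 0.33), and Zfp46, a zinc finger gene (-0.57 ± 0.19), had rostral groups that overlapped. Sec24d, of the COPII coat of vesicles that leave the endoplasmic reticulum, differed by -0.53 ± 0.18.

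Those higher in rostral KO included Srsf1, a splicing factor of the SR family, which read 12.47, 12.28 and 11.96 in rostral WT and 12.58, 12.91 and 12.77 in rostral KO. The caudal arrays of Srsf1 lay between 12.32 and 12.59, and its 5 other probe sets gave rostral effects from 0.01 to 0.35 beside 0.52 ± 0.12. ND5, a mitochondrially encoded subunit of complex I, read 12.16, 12.44 and 12.47 against 12.12, 11.87 and 11.97 in rostral cortex, with effects of 0.37 ± 0.09 rostrally and -0.01 ± 0.09 caudally. Rpgr, a protein of the cilium, read 8.5, 8.26 and 8.14 in rostral WT and 8.65, 9.03 and 8.79 in rostral KO, and 8.32 to 8.42 on the 6 caudal arrays. Zfp319, a zinc finger gene, differed by 0.86 ± 0.20 rostrally, which its other probe sets did not repeat (0.09 and -0.09), and 0610010F05Rik by 0.49 ± 0.11. Of 5 named rostral-only genes with another tested probe set, 1 kept the sign of the interaction in all of them, against 4 of 4 named caudal-only genes.

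**Figure D3:**
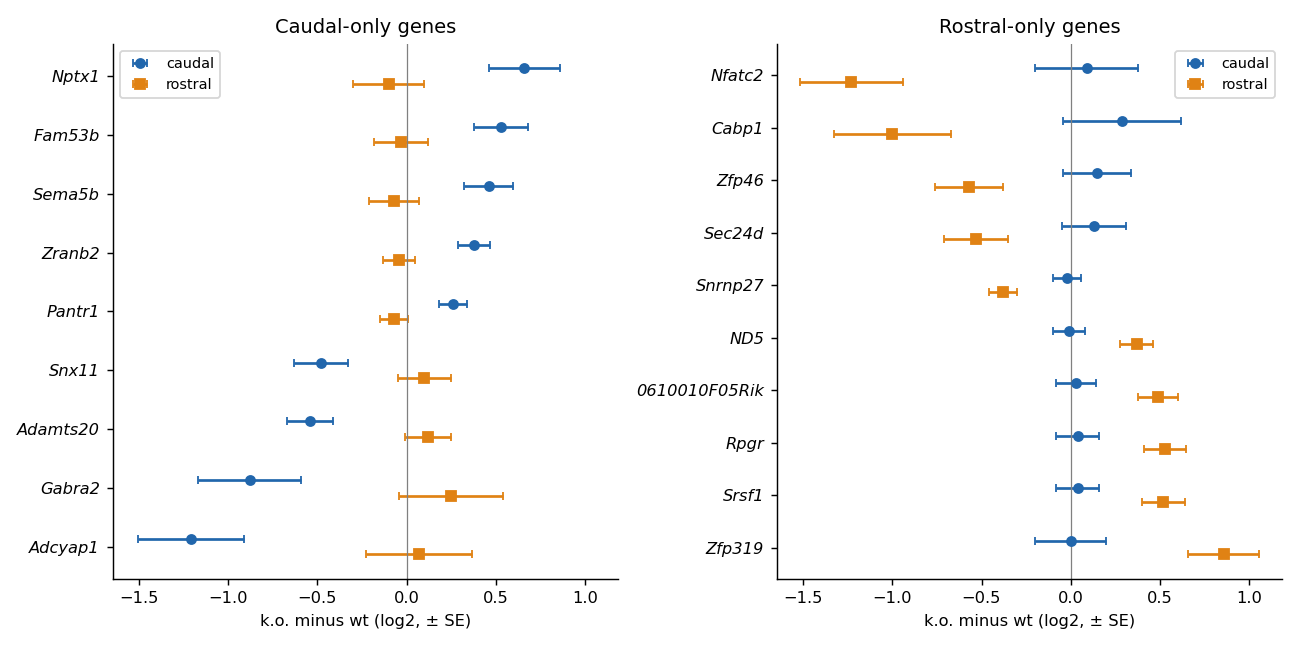
Effect of AP2gamma loss in log2 units (KO minus WT, bars are ± SE) in caudal (circles) and rostral (squares) cortex for 9 caudal-only genes (left) and 10 rostral-only genes (right). Lgals7 is left out because it was dim. The rostral effects of the caudal-only genes run from -0.10 to 0.25, and the caudal effects of the rostral-only genes from -0.02 to 0.29.

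The 30 gene lists were described by their tested members, without a test of the list, beside the median of 0.02 and the 53.3% of positive interactions over all genes. Most lists lay close to 0. The basal progenitor list (24 tested members) had a median interaction of -0.04, 11 positive and 13 negative, and none of its members had an unadjusted interaction p under 0.05. Radial glia genes stood at -0.05 (28 members), where Gas1, a growth arrest gene, differed by 0.09 caudally and -0.22 rostrally. Other tested probe sets of Gas1 gave interactions of -0.10 and 0.07, beside 0.31. S phase genes had a median of -0.03, G2 and M phase genes -0.06, p53 and apoptosis genes -0.08, immediate early genes 0.08, cholesterol synthesis genes 0.11, red blood cell genes 0.00 and sex-linked genes -0.01. The sex-linked list had median effects of 1.86 caudally and 1.88 rostrally. Its member Uty read 3.92 on caudal WT 6 and 2.97 on rostral WT 12, and between 6.58 and 7.71 on all other arrays. Sex-linked genes were thus not balanced between KO and WT in either region.

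Interactions of the neuron lists were more often positive than negative. Among young neuron genes 18 of 25 interactions were positive (median 0.06), among upper layer genes 11 of 16 (0.14) and among deep layer and subplate genes 15 of 21 (0.11). The upper layer gene Lpl, a lipase, read 10.61, 10.16 and 10.7 in caudal KO against 9.5, 10.31 and 10.65 in caudal WT, with 10.12, 8.9 and 8.51 on the rostral KO arrays and 10.23, 9.86 and 9.84 on the rostral WT arrays. Both regions overlapped for Lpl, with an interaction of 1.13 ± 0.50. The upper layer gene Lmo4 was lower in caudal KO (-0.59 ± 0.12) than in rostral KO (-0.16 ± 0.12) relative to WT. The neurofilament gene Nefl differed by -0.51 caudally and 0.48 rostrally, against the direction of most of its list. Axon guidance genes were positive in 25 of 39 (median 0.11), and 4 of these 39 had an unadjusted p under 0.05, against 3.04% of all genes, among them Nrp2, a semaphorin receptor named after its values were seen (-0.83 ± 0.39). Sema6d, a semaphorin, read 10.83, 10.75 and 11.28 in caudal KO, 10.23, 10.82 and 10.89 in caudal WT, 11, 10.72 and 11.06 in rostral KO and 11.1, 11.49 and 11.58 in rostral WT. Only the rostral groups of Sema6d were apart, and its 4 tested probe sets had interactions of 0.77, 0.31, 0.57 and 0.58.

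Patterning lists were split. The caudal patterning list had 8 of 16 positive members (median 0.05), and 3 of the 16 had a positive interaction at an unadjusted p under 0.05, as had 205 of all 11785 genes (1.74%). These were the cadherin gene Cdh8 (0.64 ± 0.29), the ephrin gene Efna2 (0.33 ± 0.15) and the ephrin receptor gene Epha3 (0.47 ± 0.22), each with a limma adjusted p of 1. In WT, caudal minus rostral was -0.13 ± 0.20, -0.56 ± 0.11 and 0.03 ± 0.15, so none of them stood out as higher caudally here. Other tested probe sets gave interactions of 0.11 for Cdh8, 0.66 for Efna2, and -0.11, 0.39 and 0.19 for Epha3. Efna2 and Epha3 are also members of the axon guidance list. The rostral patterning list had a median of 0.04 with 9 of 16 positive. Its member Fgf18, a growth factor gene, was dim in caudal WT and at least 1.23-fold higher in caudal KO, and lay rostrally at 6.01, 5.91 and 5.36 in KO against 6.61, 6.16 and 6.4 in WT. Among Notch pathway genes 18 of 26 were negative (median -0.11). The ligand gene Jag1 differed by -0.08 caudally and 0.50 rostrally (interaction -0.58 ± 0.25), and Rfng, a glycosyltransferase that modifies Notch, by 0.29 and -0.04. Other tested probe sets gave interactions of -0.64 and 0.26 for Jag1 and -0.42 for Rfng.

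Mitochondrial ribosome genes were positive in 50 of 72 (median 0.08), with 5 members (4 positive, 1 negative) at an unadjusted p under 0.05, against 3.04% of all genes. Besides Mrpl11 and Mrpl57 these include Mrpl13, which differed by 0.10 caudally and -0.21 rostrally, and, named after their values were seen, Mrpl52 (interaction 0.38 ± 0.14) and Mrps30 (0.39 ± 0.17). Other tested probe sets of Mrpl13 gave interactions of 0.07 and -0.39. The mean over the list ran from 9.16 to 9.34 in caudal KO, 9.22 to 9.35 in caudal WT, 9.10 to 9.28 in rostral KO and 9.25 to 9.39 in rostral WT, so the groups overlapped in both regions. Without rostral KO 15 the list's median interaction was 0.01. Sorting nexin and retromer genes had a median of 0.03 (16 of 31 positive), and 3 of the 31 had a negative interaction at an unadjusted p under 0.05, as had 153 of all genes (1.30%). These were Snx2, Snx11 and Snx5, another nexin of the retromer route (-0.16 caudally, 0.32 rostrally). Other tested probe sets of Snx5 gave interactions of 0.06, -0.23, -0.06 and -1.11, the first from a set of like brightness. Splicing factor genes were negative in 24 of 33 (median -0.06), with Srsf1 negative and Snrnp27 positive. The mitochondrial ribosome, nexin and splicing lists were drawn up after Mrpl57, Mrpl11, Snx2 and Snrnp27 were known from the same data. AP2 family and cofactor genes had a median of -0.05 over 8 members, where Kctd1, an inhibitor of AP2 activity, differed by 0.20 caudally and -0.54 rostrally. A second probe set of Kctd1, of like brightness, gave -0.21 and -0.15 and so did not repeat the opposite signs. Of the hypoxia and glycolysis genes (median -0.05), the metallothionein gene Mt2 read 7.63, 6.54 and 6.57 in caudal KO against 8.64, 8.94 and 8.64 in caudal WT, whereas rostral WT stood at 8.16, 8.74 and 7.9 and rostral KO at 7.37, 7.77 and 7.96. It had the same direction in both regions and an interaction of -1.26 ± 0.39.

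**Figure D4:**
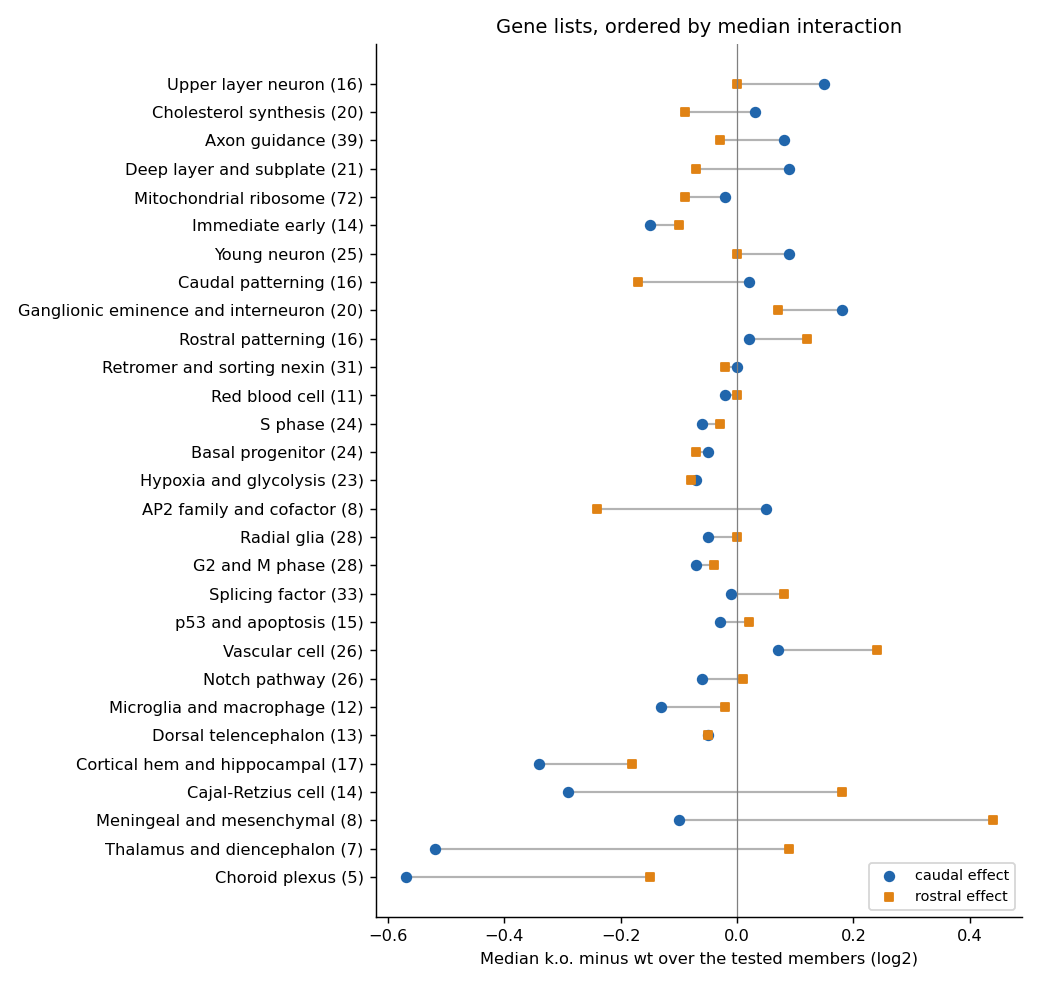
Median effect of AP2gamma loss (KO minus WT, log2) over the tested members of 29 gene lists in caudal (circles) and rostral (squares) cortex, ordered by the median interaction, with the number of tested members in parentheses. The sex-linked list is not drawn. Most lists have both medians near 0, and the choroid plexus, thalamus, meningeal, Cajal-Retzius and hem lists at the bottom have the lowest median interactions.

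The choroid plexus, thalamus, meningeal, Cajal-Retzius and hem lists had the lowest medians, which moved with single arrays or with the treatment of dim values. In bulk tissue, fewer cells of a type and less RNA per cell cannot be told apart. Cajal-Retzius cells, the reelin-producing neurons of the cortical surface, had negative interactions in 12 of 14 tested genes (median -0.51), with median effects of -0.29 caudally and 0.18 rostrally. The mean of the list was 7.30, 6.91 and 6.55 in caudal KO, 7.25, 7.24 and 6.94 in caudal WT, 7.33, 7.39 and 7.65 in rostral KO and 7.46, 7.08 and 7.26 in rostral WT. These groups overlapped, caudal KO 13 was the lowest array and rostral KO 15 the highest, and without caudal KO 13 the median was -0.23. Calb2, the calretinin gene, was the member of smallest interaction p. It read 6.6, 6.41 and 6.17 in caudal KO against 7.14, 7.06 and 7.04 in caudal WT, while rostral KO stood at 8.13, 8.44 and 8.73 and rostral WT at 8.24, 7.65 and 8.47. Only the caudal groups of Calb2 were apart (-0.69 ± 0.21 beside 0.31 ± 0.21), and its interaction of -1.0 ± 0.29 did not pass (limma adjusted p = 1). Reln, the reelin gene, differed by -0.27 and 0.02.

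Meningeal and mesenchymal genes had a median interaction of -0.53 (6 of 8 negative), and 11 of the 19 named on the array were too dim to be tested. Rostral KO 15 alone had a list mean of 8.08, while the other 11 arrays lay between 6.25 and 6.95, and without it the median was 0.00. With values raised to 5.21 it was -0.49, and 0.14 with a stricter filter on dim probe sets. Choroid plexus genes had a median of -1.10 over 5 tested members of 14 named on the array, and caudal WT 6 stood at 8.02 against 5.17 and 6.16 in the other caudal WT arrays. The rest of the choroid plexus means ran from 4.95 to 5.95 in caudal KO, 6.70 to 7.28 in rostral KO and 6.71 to 7.20 in rostral WT, and without caudal WT 6 the median interaction was 0.10. With values raised to 5.21 the choroid plexus median was -0.24, and with the stricter filter -0.04. Thalamus and diencephalon genes were negative in 7 of 7 (median -0.71, and -0.34 without caudal KO 13, whose list mean of 4.21 was the lowest). With values raised to 5.21 the thalamus median was -0.16. The means ran to 5.66 in caudal KO, from 5.27 to 6.38 in caudal WT, from 6.58 to 7.39 in rostral KO and from 6.74 to 7.10 in rostral WT. Cortical hem and hippocampal genes were negative in 13 of 17 (median -0.31, -0.06 without caudal KO 13 and -0.09 with values raised to 5.21), with means of 6.0 to 7.39 in caudal KO, 6.72 to 7.45 in caudal WT, 6.72 to 7.11 in rostral KO and 6.86 to 7.20 in rostral WT. Msx1, a homeobox gene of this list, read 6.16, 5.09 and 3.99 in caudal KO against 6.19, 6.51 and 5.64 in caudal WT, with 5.82, 5.99 and 6.0 on the rostral KO arrays and 5.93, 4.88 and 2.13 on the rostral WT arrays, with overlap in both regions. The other lists were those of vascular cells (median -0.10), microglia and macrophages (-0.22, or -0.06 with values raised to 5.21), the ganglionic eminence and interneurons (0.04) and dorsal telencephalon (-0.22, 9 of 13 negative). The part of these tissues in the opposite and 1-region genes was not tested. The interaction of Snx2 ran from -1.08 to -0.90 over 23 alternatives. Since Snx2 was chosen by its interaction p on these same arrays, a kept sign is no separate test. The part of these tissues in Snx2 was not tested either.

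**Figure D5:**
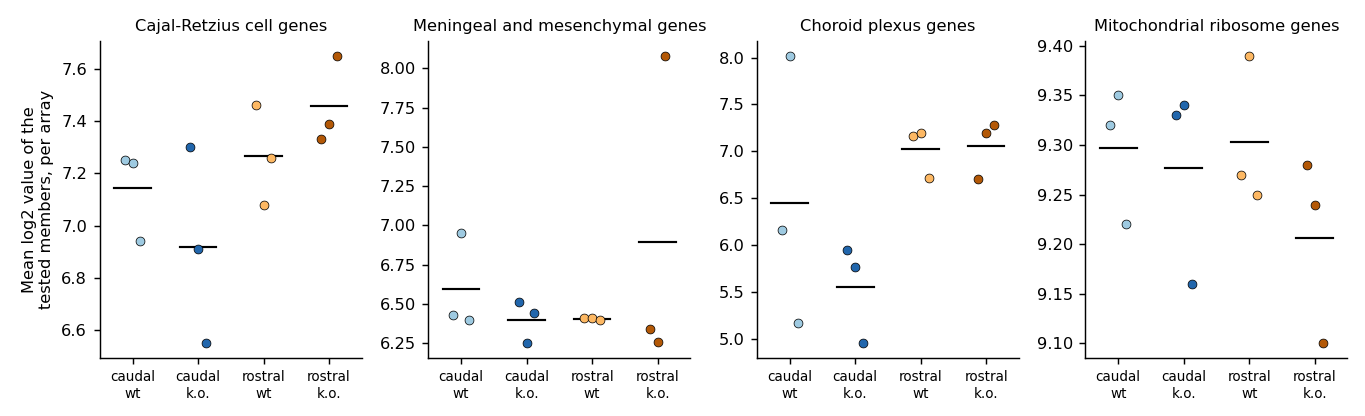
Mean log2 value of the tested members of 4 gene lists on each array (points) with the group mean (bar), by region and genotype. The vertical axes differ between panels and do not start at 0. Rostral KO 15 stands apart at 8.08 for the meningeal list and caudal WT 6 at 8.02 for the choroid plexus list, while the Cajal-Retzius and mitochondrial ribosome groups overlap.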

How the data were processed

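The authors deposited 1 table of log2 values for 45101 probe sets on 12 single-colour arrays (amplified from 400 ng of total RNA, per the labels). The unit was read from the values, and background correction and normalisation are not given in the sources used here. Of the probe sets, 34958 named 1 gene in the platform annotation, 932 named several and 9211 none, and only the first were used. A probe set was tested when above 5.21, the median of the table, on at least 3 arrays, and the tested set with the highest mean stood for the gene. All arrays entered 1 limma 3.58.1 fit (R 4.3.3) with 1 mean per group and a trend of the variance with intensity (8 residual degrees of freedom, 5.37 prior ones), tested on simulated data. P-values are two-sided. Values under 5.21 were raised to 5.21 for folds given as "at least". For Flnc, Aanat, Aqp2 and Scarf2 this also raised arrays of the brighter group, so their folds are not bounds. Only 3 arrays per group limit the precision.

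The members and the 30 lists were chosen with earlier results of these data known. Genes named are the 10 of smallest interaction p, the opposite genes, the 5 caudal-only and rostral-only genes of smallest p each way, up to 3 members per list, and Tfap2c, Neurod4, Eomes and Nrn1. Genes named outside this rule (Ptpn21, Plekhg1, Sh3gl3, Reln, Mrpl52, Mrps30, Nrp2) were chosen after their values were seen. Alternatives changed the filter, the probe set rule, the normalisation, the floor, the trend, the blocks, a covariate and the arrays used.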

Additional observations from a re-analysis of the deposited data

How the results depend on the processing

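Of the interactions of the 56 named genes under 22 or 23 alternatives each, 1258 kept direction and side of the threshold, 12 turned and 1, Snx2 with animals 13 to 16 as a block, passed. Most of the 56 genes were chosen by their values on these same arrays, so a kept direction is no separate test. No gene passed in the report, so keeping the side of the threshold only means not passing. Of the list medians 648 moved by less than the spread between arrays and 42 by more. The count of genes past the threshold was 0 in every alternative except that block (1 gene). Genes at an unadjusted p under 0.05 numbered 358 of 11785 tested in the report. With no filter there were 635 of 18194, and with the stricter filter 222 of 7373. The block gave 643 of 11785, and all probe sets one by one gave 668 of 24676. With 1 array left out the count was 245 to 708 of 11785. The filters thus change the number of genes tested, and counts below should be read beside it. Opposite genes numbered 29 with no filter, 6 with the stricter filter, 20 with no trend, 22 with the block and 8 without animals 6 and 12 (the arrays with high Xist), and 7 to 21 with 1 array left out. Caudal-only genes numbered 57, 11, 45 with the block, 43 in animals 1 to 12 and 16 with Xist as a covariate, and 16 to 72 with 1 array left out. Rostral-only genes numbered 73 with no filter and 108 with the block, and 23 to 111 with 1 array left out. Opposite genes without overlap numbered 64 with no filter, 14 with the stricter filter, 488 in animals 1 to 12 and 167 without animals 6 and 12, and 51 to 109 with 1 array left out; fewer arrays per group overlap less by construction. The cause of the other shifts was not tested. Turned values were 0.54 for Neurod4 with floored values, -0.05 for Rfng and 0 for Mrpl13 with probe sets averaged, and 0.06 for Eomes in animals 1 to 12. With 1 array left out Neurod4 ran from -0.34 to 0.31 and Eomes from -0.14 to 0.08.

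No paired analysis was possible from the labels, because every array has its own number. The order of the numbers gives 6 pairs of a caudal and a rostral array (1 with 7, 2 with 8, 4 with 10, 6 with 12, 13 with 15, 14 with 16). The deviations from the group means correlated within these pairs with r from 0.08 to 0.37. Compared only with arrays of the other region, each of the 12 arrays correlated best with its partner. This is a hint from the data and not from the design. With these pairs as a fixed block 0 genes passed (smallest limma adjusted p 0.095, Snx2 and Sbk1) and 734 had an unadjusted p under 0.05. This fit gives no regional effects and so no opposite or 1-region counts. The fits of all probe sets and without animals 6 and 12 were chosen after seeing the data. Signals under 5.21 limit Lgals7 and Fgf18 to bounds and leave Flnc, Aanat, Aqp2 and Scarf2 without one. Such signals also enter the effects of Adcyap1 and Nfatc2.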
